A study of Mus musculus with 10 samples.

Results

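The genes described here are the IL-6 family cytokines and receptors on a mouse immune panel, with the transcription factor *Stat3*. They are the ligands *Il6*, *Il11*, *Lif* and *Osm*, the receptor chains *Il6ra*, *Il11ra1* and *Il6st*, and *Stat3*, chosen by name as 8 of the 770 probes for genes. mRNA was measured with the NanoString nCounter PanCancer Immune Profiling panel, which counts color-coded probe pairs without amplification, in tumors from WT mice (n = 5) and from Siah2 KO mice (n = 5). Siah2 is a ubiquitin ligase, and the comparison asks how its loss in the host alters immune gene expression in a melanoma. Both groups received YUMMER1.7 cells, a BRAF-mutant mouse melanoma line with a high mutation burden, injected under the skin, so that the host cells and not the injected cells differ in genotype. The mice were male, on a C57BL/6 background and, in the animal summary of the study, 6 to 10 weeks old. No drug or other treatment is named for either group. According to the sample labels the tumors were taken on day 11 after injection, whereas the text of the series gives day 10 and names another melanoma line, Yumm1.5, and another genotype, Rnf5-/-. The groups used here follow the sample labels. *Siah2* has no probe on the panel, so the genotype could not be checked in these values. Tumors are numbered 2, 3, 4, 5 and 6 among WT and 1, 2, 3, 5 and 6 among Siah2 KO mice. It is not stated in the labels that each tumor came from its own mouse, and the p-values measure the spread between these tumors.

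Cytokines of the IL-6 family signal through a shared receptor chain, gp130, encoded by *Il6st*. IL-6 binds first to the IL-6 receptor chain encoded by *Il6ra* and IL-11 to the chain encoded by *Il11ra1*, and each complex then engages gp130, while LIF and oncostatin M use gp130 together with further receptor chains that the panel does not measure. Gp130 activates JAK kinases, which phosphorylate STAT3, and STAT3 induces its own gene and the feedback inhibitor *Socs3*. IL-6 and oncostatin M are largely products of activated macrophages, neutrophils, T cells or stromal cells, LIF is also made by tumor and stromal cells, and signaling through STAT3 is known in tumors for its part in inflammation and in restraining anti-tumor immunity. The panel reports mRNA, so neither the cytokine proteins nor phosphorylated STAT3 was measured.

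The promoters of *Il6* and *Lif* are shown because *Lif* is the ligand whose groups did not overlap, *Il6* gives the family its name, and both windows held matches to the same motifs. Each run is the 250 bases before the transcription start, from RefSeq on GRCm38.p6, both on the plus strand, with matches to the NF-kB consensus and to the AP-1 motif TGANTCA in capitals. 7 of the 8 genes had a promoter entry.
*Il6*, chr5:30012864-30013113: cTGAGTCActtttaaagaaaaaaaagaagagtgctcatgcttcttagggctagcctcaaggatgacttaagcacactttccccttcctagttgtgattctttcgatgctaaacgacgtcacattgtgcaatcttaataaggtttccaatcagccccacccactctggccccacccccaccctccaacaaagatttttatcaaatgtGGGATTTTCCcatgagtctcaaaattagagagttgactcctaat
*Lif*, chr11:4257318-4257567: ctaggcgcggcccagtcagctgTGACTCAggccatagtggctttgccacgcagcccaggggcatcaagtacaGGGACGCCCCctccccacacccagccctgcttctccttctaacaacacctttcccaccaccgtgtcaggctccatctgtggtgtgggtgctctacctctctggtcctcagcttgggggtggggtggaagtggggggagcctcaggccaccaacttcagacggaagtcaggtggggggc
In the *Il6* window the NF-kB consensus was matched by GGGATTTTCC, whose first base lies at -44 relative to the start, and AP-1 by TGAGTCA at -249. In the *Lif* window the corresponding matches were GGGACGCCCC at -178 and TGACTCA at -228. On both strands, the NF-kB consensus occurred in 7.25% and the AP-1 motif in 6.75% of the 32851 mouse promoter windows of the same length. The matches did not overlap each other. The STAT motif TTCNNNGAA, present in 7.02% of windows, had no match in the windows of the members. Among the other members with an entry, *Il6ra*, *Il6st*, *Il11ra1* and *Stat3* held none of the 3 motifs, and 1 of the 2 start sites of *Il11* had an AP-1 match. *Osm* and *Lif* are neighbors on chromosome 11 with 0 annotated genes between them. A match is a string of letters and not a measured binding site.

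The values are normalized counts, scaled in each tumor to 20 reference genes. Before that scaling the 770 probes summed to 443454 to 578705 counts in WT and 382860 to 581637 in Siah2 KO tumors, and the scaling factor was 0.918 to 1.32 and 1.03 to 1.60. Tumors correlated with each other at r = 0.952 to 0.989 over the 770 probes, and no pair was duplicated. Across all probes the median log2 fold change, Siah2 KO over WT, was 0.24, and scaling each tumor to its median endogenous probe moved it to -0.01. At an adjusted p under 0.05 by limma, 316 of the 770 probes (41.0%) differed, 241 higher and 75 lower in Siah2 KO tumors, and after median scaling 315 differed, 163 higher and 152 lower. Of 8 leukocyte markers 6 were higher, with a summed level of 4599 to 5655 in WT and 6775 to 10250 in Siah2 KO tumors, as were 5 of 8 T cell markers. Of 5 fibroblast markers 4 were lower, with a summed level of 17125 to 22093 in WT and 10976 to 12818 in Siah2 KO tumors. Of 7 macrophage markers 2 were higher and 1 lower, of 8 neutrophil markers 1 was higher, of 6 endothelial markers 1 was higher and 2 lower, and 1 of 4 mast cell and 1 of 3 epithelial markers were lower. The label melanoma could be checked only with *Mcam*, *S100b* and *Cspg4*, since the pigment cell genes *Mlana*, *Pmel*, *Tyr* and *Dct* have no probe. Their summed level was 438 to 594 in WT and 224 to 405 in Siah2 KO tumors, 2 of the 3 were lower, and *S100b* was above the highest negative control in 4 of 10 tumors.

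Among the ligands, *Lif* was the member that separated the genotypes. LIF is a cytokine best known for maintaining stem cells and is also produced in inflamed tissue. In the WT tumors *Lif* measured 124, 118, 121, 113 and 137 normalized counts, and in the Siah2 KO tumors 191, 225, 285, 175 and 225. Every Siah2 KO tumor lay above every WT tumor. The mean was 220.3 ± 42.4 (SD, n = 5) in Siah2 KO and 123 ± 8.86 (SD, n = 5) in WT tumors, a ratio of 1.80. The log2 fold change was 0.82 ± 0.13 (SE), with a 95% interval of 0.53 to 1.12 and an adjusted p of 0.0011 by limma over all probes, and the two-sided exact permutation test gave p = 0.0079, the smallest that 252 divisions of the tumors allow. By log2 fold change *Lif* was 128th of the 770 probes. Leaving out any tumor kept the value between 0.73 and 0.90. It was smaller under median scaling (0.56, adjusted p = 0.013 by limma) and quantile normalization (0.53, adjusted p = 0.010 by limma), and the call was lost with scaling to the positive control probes (0.66, adjusted p = 0.21 by limma). In these bulk tumors fewer or more cells of a type and a change of RNA per cell cannot be told apart, and the part of the leukocyte markers, which moved in the same direction, was not tested for *Lif* beyond the comparison relative to them given further on.

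*Osm*, a cytokine of myeloid and T cells, was more variable. WT tumors measured 27.2, 31.5, 54.5, 24.8 and 23.0 normalized counts and Siah2 KO tumors 33.1, 61.7, 104, 70.5 and 31.5. 3 of the 5 Siah2 KO tumors lay above the highest WT tumor, number 4, and the other two lay within the WT range. The means were 60.1 ± 29.8 and 32.2 ± 12.9 (SD, n = 5 each) in Siah2 KO and WT tumors. The log2 fold change of 0.81 ± 0.35 (SE), with a 95% interval of 0.02 to 1.60, did not pass the test (adjusted p = 0.092 by limma, exact permutation p = 0.063). Its size was close to that of *Lif*, while its standard error was larger. Without WT tumor 4 the log2 fold change was 1.01 (adjusted p = 0.045 by limma), and without Siah2 KO tumor 6 the adjusted p was 0.042 by limma. Without Siah2 KO tumor 3, the highest, the log2 fold change was 0.58 (adjusted p = 0.19 by limma). Median scaling and quantile normalization each gave 0.55 (adjusted p = 0.21 by limma in both).

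*Il6*, the founding cytokine of the family, was near the background of the assay and did not pass the test. It measured 7.06, 13.0, 29.7, 6.29 and 6.65 normalized counts in WT and 6.44, 12.1, 44.2, 11.4 and 7.77 in Siah2 KO tumors. WT tumor 4 and Siah2 KO tumor 3 stood above the other tumors of their groups, and the groups overlapped over most of their range. In 7 of 10 tumors *Il6* was above the highest of the 8 negative controls, the exceptions being WT tumor 5 and Siah2 KO tumors 5 and 6. The log2 fold change was 0.26 ± 0.54 (SE), with a 95% interval of -0.95 to 1.47 (adjusted p = 0.72 by limma). Without Siah2 KO tumor 3 its direction turned, to -0.17 and a direction was not detectable at these counts. *Il11*, a cytokine mainly of stromal and epithelial cells, measured 3.23, 1, 3.10, 2.33 and 9.54 in WT and 9.77, 1.60, 10.1, 2.54 and 2.62 in Siah2 KO tumors. It was at the floor of the assay in 2 tumors and above the negative controls in 3 of 10, WT tumor 6 and Siah2 KO tumors 1 and 3. Its log2 fold change of 0.34 ± 0.53 (SE), with a 95% interval of -0.84 to 1.52, did not pass the test (adjusted p = 0.62 by limma).

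**Figure D1:**
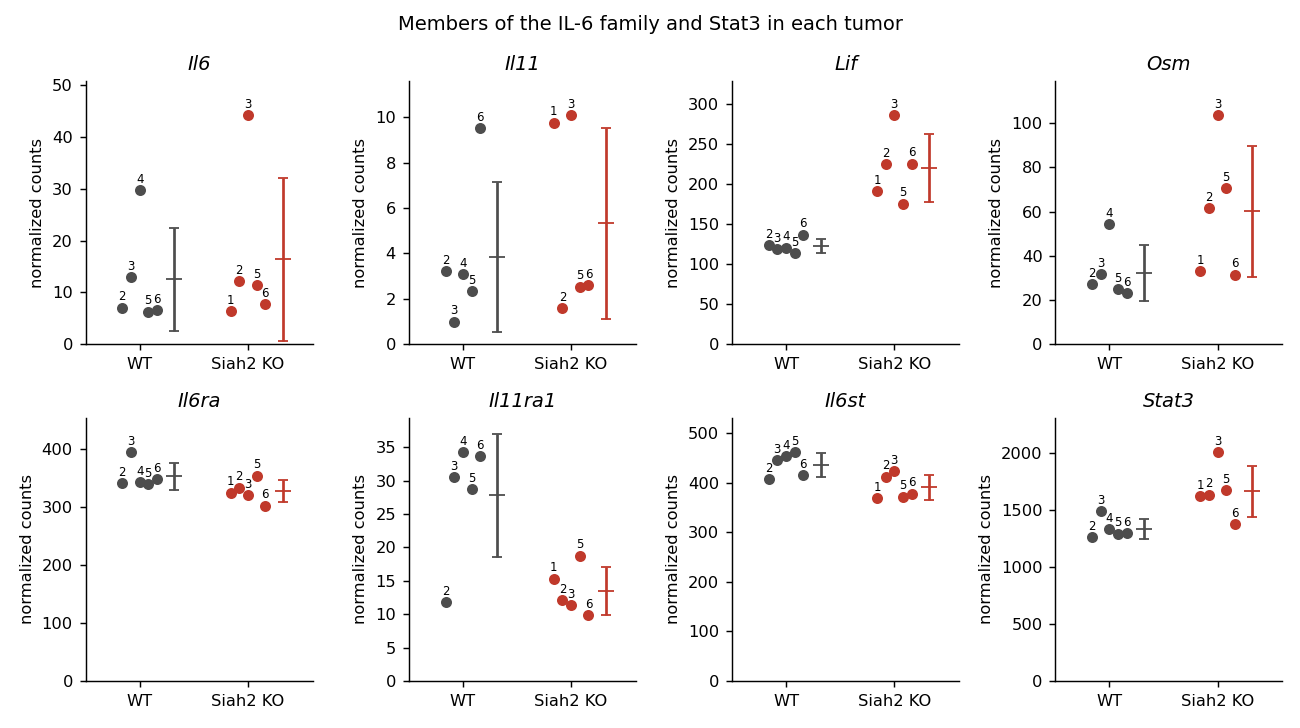
Normalized counts (y axis, from 0) of the 8 genes in each WT and Siah2 KO tumor, with 1 panel per gene. Points are tumors marked by their number, and the symbol with bars at the side of each group is the mean ± SD (n = 5). *Lif* values of the Siah2 KO tumors, 175 to 285, all lie above the WT values, 113 to 137, whereas *Il6* and *Il11* overlap between the groups.

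Among the receptor chains, *Il11ra1*, which binds IL-11, fell in Siah2 KO tumors, and *Il6ra* and *Il6st* did not pass the test. It measured 11.85, 30.6, 34.3, 28.7 and 33.6 normalized counts in WT and 15.3, 12.1, 11.35, 18.8 and 9.83 in Siah2 KO tumors. All Siah2 KO tumors lay below WT tumors 3, 4, 5 and 6, and WT tumor 2 lay among the Siah2 KO tumors. Siah2 KO tumors averaged 13.5 ± 3.58 and WT tumors 27.8 ± 9.21 (SD, n = 5 each), a ratio of 0.485. The log2 fold change was -0.94 ± 0.29 (SE), with a 95% interval of -1.58 to -0.30 (adjusted p = 0.025 by limma, exact permutation p = 0.032), at rank 28 of 770 from the lower end. The counts were low, with *Il11ra1* above the highest negative control in 9 of 10 tumors and equal to it in Siah2 KO tumor 6, and the log2 fold change was -0.51 (adjusted p = 0.014 by limma) with a floor of 20 and -0.66 (adjusted p = 0.019 by limma) with a pseudocount of 10. Without WT tumor 2 it was -1.21 (adjusted p = 0.0014 by limma), and the call was lost, at adjusted p of 0.050 to 0.059, without any of WT tumors 3, 4, 5 or 6 or Siah2 KO tumors 3 or 6. The mouse genome holds *Il11ra2*, a near-identical copy of this gene, whose name the reference lists under *Il11ra1*, and which of them the probe reads is uncertain. The fibroblast markers, a cell type known to express this receptor, were lower in the same tumors with the summed levels given above, and their part in the *Il11ra1* value was not tested.

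*Il6st*, which encodes the shared chain gp130, measured 406, 445, 454, 462 and 414 normalized counts in WT and 369, 412, 423, 372 and 378 in Siah2 KO tumors. 3 Siah2 KO tumors lay below the lowest WT tumor. Siah2 KO tumors averaged 391 ± 25.0 and WT tumors 436 ± 24.4 (SD, n = 5 each). The log2 fold change was -0.16 ± 0.08 (SE), with a 95% interval of -0.34 to 0.02, and did not pass the test (adjusted p = 0.14 by limma, exact permutation p = 0.040). On the same scale *Il6st* passed by the methods' test with equal variances (adjusted p = 0.049) and with a floor of 20 (adjusted p = 0.042 by limma). It did not pass with a pseudocount of 10 (adjusted p = 0.11 by limma) or with any single tumor left out (adjusted p = 0.11 to 0.25 by limma). *Il6ra*, the chain that binds IL-6, measured 341, 395, 343, 340 and 348 in WT and 325, 334, 321, 354 and 302 in Siah2 KO tumors. 4 of the 5 Siah2 KO tumors lay below every WT tumor and number 5 was the exception. The means were 327 ± 18.9 and 353 ± 23.4 (SD, n = 5 each), with a log2 fold change of -0.11 ± 0.08 (SE), a 95% interval of -0.29 to 0.07 and an adjusted p of 0.30 by limma (exact permutation p = 0.063). Both chains depended on the scaling. Under median scaling *Il6ra* fell by 0.38 (adjusted p = 0.0073 by limma) and *Il6st* by 0.42 (adjusted p = 0.0053 by limma), and under quantile normalization they fell by 0.42 (adjusted p = 0.0046) and 0.51 (adjusted p = 0.0017).

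*Stat3*, the transcription factor downstream of gp130, rose on the scale of the reference genes. It measured 1259.8, 1484, 1329, 1289 and 1294 normalized counts in WT and 1618, 1632, 2004, 1669 and 1372 in Siah2 KO tumors. 4 Siah2 KO tumors lay above the highest WT tumor, and number 6 lay within the WT range. Siah2 KO tumors averaged 1659 ± 226 and WT tumors 1331 ± 89.0 (SD, n = 5 each), a ratio of 1.25, and the log2 fold change was 0.31 ± 0.11 (SE), with a 95% interval of 0.07 to 0.55 (adjusted p = 0.041 by limma, exact permutation p = 0.016). The rise was little above the median of all probes, 0.24, and was lost under median scaling (0.04, adjusted p = 0.76 by limma), while quantile normalization turned its direction (-0.11, adjusted p = 0.33 by limma). The call was also lost, at adjusted p of 0.064 to 0.088 by limma, without any of WT tumors 2, 4, 5 or 6 or Siah2 KO tumors 1, 2, 3 or 5.

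In all, 3 of the 8 members (37.5%) differed, beside 41.0% of all probes. 2 members were higher, *Lif* and *Stat3*, beside 31.3% of all probes, and 1 was lower, *Il11ra1*, beside 9.74%. Under median scaling and under quantile normalization 1 member was higher, *Lif*, and 3 were lower, *Il6ra*, *Il6st* and *Il11ra1*. The median log2 fold change was 0.29 over the members and 0.24 over all probes. *Lif* was the 1 member that was higher without overlap of the groups, as were 24.5% of all probes, and 0 members were lower without overlap, as were 7.01% of all probes. With 8 genes, these counts lie near the shares of the panel. Siah2 KO tumor 3 was the highest of the 10 tumors for *Il6*, *Il11*, *Lif*, *Osm* and *Stat3*. Within a group the coefficient of variation was largest for *Il6*, 96.0% in Siah2 KO and 79.6% in WT tumors, and *Il11*, 79.4% and 86.1%, and was 5.79% and 6.63% for *Il6ra*.

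**Figure D2:**
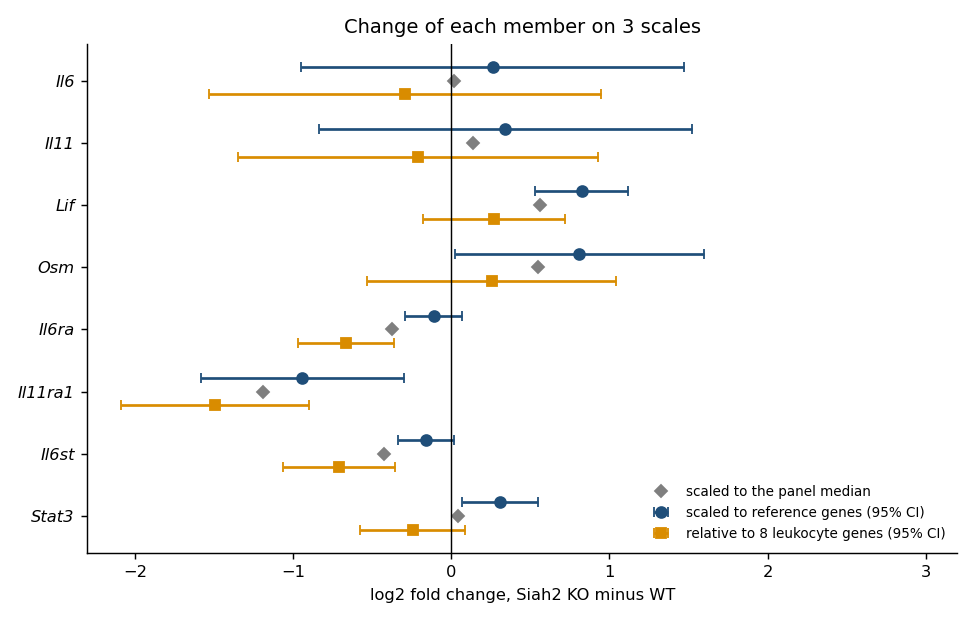
Log2 fold change of each member, Siah2 KO over WT, on 3 scales: relative to the reference genes as deposited (circles, bars are 95% intervals), after scaling each tumor to its median probe (diamonds), and relative to 8 leukocyte genes of the same tumor (bars are 95% intervals). *Lif* is above 0 and *Il11ra1* below 0 on each scale, and *Stat3* lies at 0.31, 0.04 and -0.24 on the 3 scales. Relative to leukocyte genes the interval of *Lif*, -0.18 to 0.72, includes 0.

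Because leukocyte genes rose in Siah2 KO tumors, each member was also set against the median of 8 of them in the same tumor. A common scaling factor cancels in this difference, apart from the effect of the pseudocount on low counts. On this scale the receptor chains fell and no ligand passed the test. *Il6ra* had a log2 fold change of -0.66 (95% interval -0.97 to -0.36, adjusted p = 0.0034 by limma), *Il6st* had a log2 fold change of -0.71 (-1.07 to -0.36, adjusted p = 0.0051 by limma) and *Il11ra1* of -1.49 (-2.09 to -0.90, adjusted p = 0.0015 by limma). The exact permutation p was 0.0079 for each of these 3 genes, the smallest that 252 divisions of the tumors allow. The share of all probes at this p is not given for this scale. The leukocyte genes shift the log2 fold change of every probe by the same amount, from -0.11 to -0.66 for *Il6ra* and from -0.16 to -0.71 for *Il6st*. For *Il6st* the log2 difference from the leukocyte genes was -0.37 to 0.15 in WT and -1.35 to -0.60 in Siah2 KO tumors, and for *Il6ra* it was -0.67 to -0.25 and -1.42 to -0.91. The share of all probes lower on this scale was 34.0%, and the share higher was 10.1%, with a median over all probes of -0.32, so 3 of 8 members lower and 0 higher stand beside a panel that itself moved down. *Lif* had a log2 fold change of 0.27 relative to leukocyte genes, with a 95% interval of -0.18 to 0.72 (adjusted p = 0.29 by limma), and without Siah2 KO tumor 5 it was 0.45 (adjusted p = 0.025). *Osm* was at 0.26 (adjusted p = 0.58), and at 0.04 without Siah2 KO tumor 3, and *Stat3* was at -0.24 (adjusted p = 0.20). *Il6* at -0.29 (adjusted p = 0.69) and *Il11* at -0.21 (adjusted p = 0.76) took either sign when single tumors were left out.

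The ratio of 2 members in the same tumor likewise cancels a common scaling factor, except for the pseudocount, and asks whether they changed unequally. Of the 28 pairs, 4 did not overlap between the groups, each with *Lif* or *Stat3* against *Il6ra* or *Il6st*. The share of other probe pairs of the panel without overlap was not computed. Among single probes 24.5% were higher and 7.01% lower without overlap. The log2 ratio of *Lif* to *Il6st* was -2.02 to -1.59 in WT and -1.08 to -0.57 in Siah2 KO tumors, a difference of 0.98, and that of *Lif* to *Il6ra* was -1.73 to -1.34 and -1.01 to -0.17, a difference of 0.93. The ratio of *Il6st* to *Stat3* was -1.74 to -1.48 in WT and -2.24 to -1.86 in Siah2 KO tumors, a difference of -0.47, and that of *Il6ra* to *Stat3* was -1.95 to -1.88 and -2.64 to -2.18, a difference of -0.42. The exact permutation p was 0.0079 for each of these 4 pairs and 0.056 after Benjamini-Hochberg adjustment over the 28 pairs. No pair passed at an adjusted p under 0.05, and 12 had an unadjusted exact permutation p under 0.05. The 4 pairs stood at the smallest p that the 252 divisions allow, so the coarseness of the test limits the adjusted count. The adjusted count depended on how low values were treated. It was 11 pairs with a floor of 20 and 9 pairs with a pseudocount of 10. The floor sets every *Il11* value to 20, and every *Il6* value except those of WT tumor 4 and Siah2 KO tumor 3. A floored pair holding either gene therefore largely followed its other member, and the scaling did not cancel in it.

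**Figure D3:**
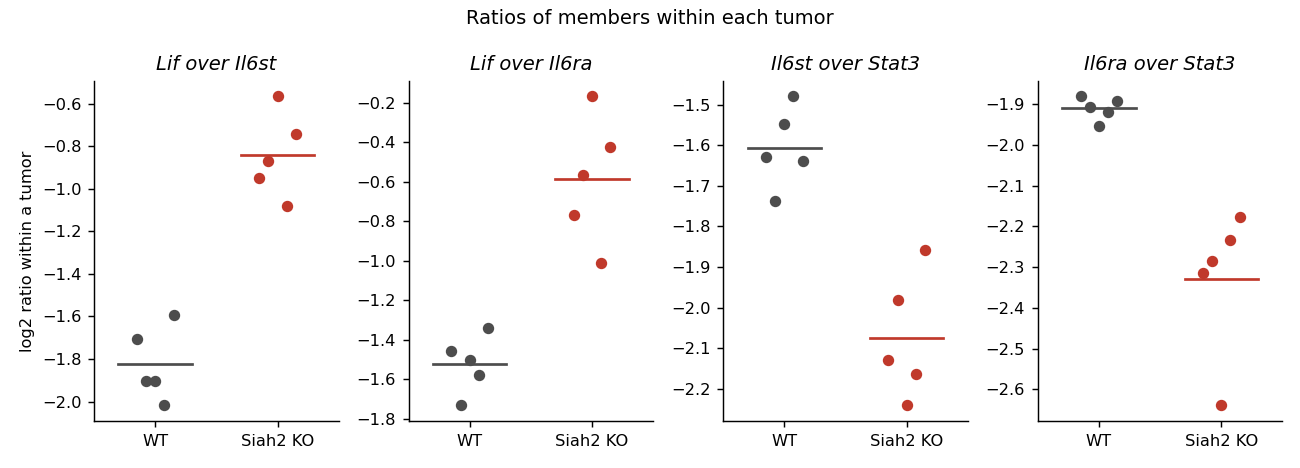
Log2 ratio of 2 members within each tumor (y axis, not starting at 0) for the 4 pairs without overlap between WT and Siah2 KO tumors. Points are tumors and lines are group means. *Lif* is higher against *Il6st* and *Il6ra*, by 0.98 and 0.93, and both receptor chains are lower against *Stat3*, by -0.47 and -0.42, in all Siah2 KO tumors.

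The genes around the members were taken from 8 lists of the pathway, 38 genes in all, of which 12 (31.6%) were higher in Siah2 KO tumors, beside 31.3% of all probes, and 0 were lower at either an adjusted or an unadjusted p under 0.05 by limma, or by the methods' test with equal variances. These directions depended on the scaling, with 8 higher and 1 lower, *Maf*, under median scaling and 7 higher and 5 lower, *Jak1*, *Jak2*, *Stat6*, *Nfkb1* and *Maf*, under quantile normalization. Their median log2 fold change was 0.26. Of 6 targets and feedback genes of STAT3, 4 rose. *Socs3*, the feedback inhibitor of gp130 signaling, was 84.8 to 97.3 normalized counts in WT and 112 to 192 in Siah2 KO tumors, a log2 fold change of 0.69 ± 0.14 (SE, adjusted p = 0.0040 by limma), without overlap. *Socs1*, which restrains JAK kinases after interferon, rose by 0.98 ± 0.24 (adjusted p = 0.0083 by limma). *Cebpb*, a transcription factor of the acute phase response, was 453 to 532 in WT and 745 to 1615 in Siah2 KO tumors and rose by 1.11 ± 0.18 (adjusted p = 0.0011 by limma), and *Myc* rose by 0.52 ± 0.09 (adjusted p = 0.0019 by limma). The survival gene *Bcl2l1*, at 0.24, and the transcriptional coregulator *Sbno2*, at 0.14, did not pass. Relative to the leukocyte genes, *Cebpb* was the member of this list that remained higher (0.56, adjusted p = 0.031 by limma), while *Socs3* was at 0.14, *Socs1* at 0.43 and *Myc* at -0.04.

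Of 6 genes whose products induce or activate *Il6*, 3 rose. *Il1b* was 179.6 to 350 normalized counts in WT and 613 to 1070 in Siah2 KO tumors, a log2 fold change of 1.51 ± 0.21 (SE, adjusted p = 5.7e-04 by limma), and *Tnf* was 37.4 to 52.9 and 85.7 to 175, a log2 fold change of 1.52 ± 0.19 (adjusted p = 3.0e-04 by limma). *Il1a* rose by 1.21 ± 0.36 (adjusted p = 0.021 by limma) at 10.5 to 39.1 normalized counts in Siah2 KO tumors. The NF-kB subunit genes *Nfkb1*, at 0.15, and *Rela*, at 0.08, and *Il17a*, at the background, did not pass. Both genes of IL-27, a cytokine that also signals through gp130, were higher by limma, and 1 of the 2 passed the methods' test. *Ebi3* was 64.7 to 95.2 in WT and 119.6 to 172 in Siah2 KO tumors (log2 fold change 0.86 ± 0.14, adjusted p = 0.0011 by limma), whereas *Il27* was above the negative controls in 3 of 10 tumors (1.03 ± 0.35, adjusted p = 0.038 by limma). The groups overlapped for *Il27* (exact permutation p = 0.056).

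The kinases that gp130 uses did not pass the test, with log2 fold changes of 0.05 for *Jak1*, 0.18 for *Jak2* and 0.03 for *Tyk2* (0 of 3 at an unadjusted p under 0.05 by limma and 0 by the methods' test). Among 4 other STAT genes, *Stat2*, a factor of the type I interferon response, rose by 0.58 ± 0.14 (SE, adjusted p = 0.0079 by limma), and *Stat4*, *Stat5b* and *Stat6* did not pass. Of the 5 acute phase genes, 0 passed at an adjusted or unadjusted p by limma or by the methods' test, and 4 had a mean under 20 normalized counts, the exception being *Lbp* with a log2 fold change of -0.33. Of the 8 genes of Th17 cells, which need IL-6 and STAT3 to form, 0 passed at an adjusted p by limma or by the methods' test and 1 passed at an unadjusted p. *Il17a*, *Il17f* and *Il21* were in no tumor above the negative controls. Among 5 other cytokines and receptors that activate STAT3, *Il10ra*, the IL-10 receptor chain, rose by 0.55 ± 0.18 (adjusted p = 0.033 by limma) and *Csf3r*, the neutrophil receptor for G-CSF, by 0.95 ± 0.20 (adjusted p = 0.0044 by limma), while *Il10*, *Csf3* and *Il21r* did not pass. *Il10ra* is expressed by leukocytes in general and its log2 fold change relative to the leukocyte genes was 0.00.

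**Figure D4:**
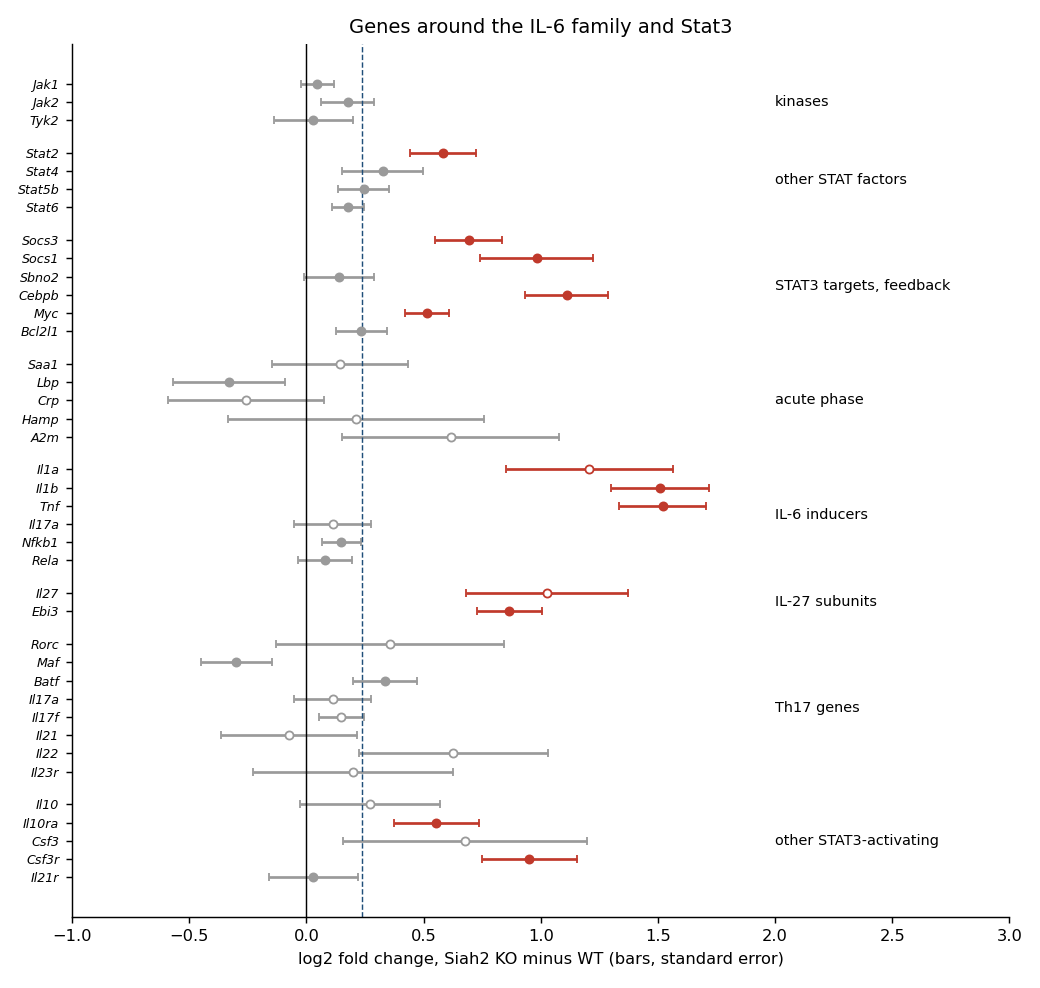
Log2 fold change ± SE, Siah2 KO over WT, of the pathway genes grouped by list (5 tumors per group). Red marks an adjusted p under 0.05 by limma, open symbols a mean under 20 normalized counts, and the dashed line the median of all probes, 0.24. The STAT3 targets *Cebpb* and *Socs1* and the inducers *Il1b* and *Tnf* lie farthest to the right of the well-detected genes, and no gene is called on the left on this scale, whereas 1 is under median scaling and 5 are under quantile normalization.

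Within the groups, 1 of the 28 pairs of members varied together across tumors after adjustment. With group means removed, *Il6* and *Osm* had Pearson's r = 0.91 over 10 tumors (exact permutation within groups, p = 0.0010, adjusted p = 0.027) and a rank correlation of 0.85 within groups (exact permutation p = 0.0093, adjusted p = 0.26). Without the tumors farthest out for *Il6*, Siah2 KO 3 and WT 4, r was 0.80. The r was 0.89 among Siah2 KO and 0.98 among WT tumors. These tumors share the panel and the scaling to reference genes, and 3 of the *Il6* values are not above the negative controls. The next pairs, *Osm* with *Stat3* (r = 0.71) and *Il6* with *Stat3* (r = 0.70), had an adjusted exact permutation p of 0.35.

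**Figure D5:**
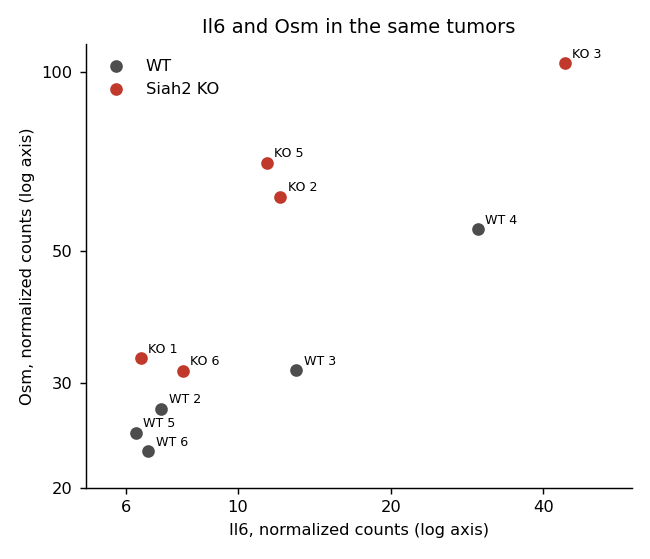
Normalized counts of *Il6* (x axis) and *Osm* (y axis), both on log axes, in each WT and Siah2 KO tumor, marked by its number. With group means removed r was 0.91, with WT tumor 4 and Siah2 KO tumor 3 farthest to the upper right of their groups.

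Beyond the members, the 3 probes whose deviations from the group means were most like those of each well-detected member were listed over the 10 tumors, as a description. *Osm* was closest to the chemokine genes *Ccl17* (r = 0.94) and *Ccl22* (r = 0.89), which were themselves lower in Siah2 KO tumors, with log2 fold changes of -3.46 (adjusted p = 0.0051 by limma) and -1.37 (adjusted p = 0.0063 by limma). *Lif* was closest to *Ticam1*, an adaptor of Toll-like receptors (r = 0.84), *Ccl25* (0.81) and *Dusp6*, a phosphatase of ERK (0.78). *Stat3* was closest to *Cebpb*, *Jak2* and *Tap2* (r = 0.93 each), *Il11ra1* to *Il15ra* (0.93), *Nlrc5* (0.83) and *Il15* (0.82), *Il6st* to *Ccl7* (0.85), *Cdh1* (0.82) and *Ripk2* (0.79), and *Il6ra* to the leukocyte genes *Cd33* (0.85), *Cd37* (0.84) and *Tnfrsf13b* (0.84). Under median scaling 8 of these 18 genes stayed among the nearest, which were all those of *Lif*, *Ccl17* and *Ccl22* for *Osm*, *Il15ra* and *Nlrc5* for *Il11ra1*, and *Jak2* for *Stat3*. The neighbors of *Il6ra* and *Il6st* did not stay.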

How the data were processed

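The deposited signal of each probe is a normalized count. According to the methods, the authors processed the counts with nSolver v2.0, left out samples with outlying positive controls and scaled each tumor by the geometric mean of 20 reference genes. From the values, a background constant was also subtracted from each count before a floor was set. The labels give 100 ng of RNA per assay and no batch or cartridge.

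From the deposited normalized counts, log2(value + 1) was computed for 770 probes, including the reference genes, and Siah2 KO was compared with WT with limma 3.58.1 (lmFit, eBayes, R 4.3.3), two-sided, and Benjamini-Hochberg adjustment over the 770 probes. Single genes and within-tumor ratios were also tested by a two-sided exact permutation test over all 252 divisions of the 10 tumors. Correlations were tested over all orders of the tumors within groups. SDs are of normalized counts. Levels of different probes were not compared. For the motif search on both strands the 250 bases before each RefSeq start were read. The tests were checked on simulated data. Figures used matplotlib 3.10.9 in Python 3.11.15.

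The members, gene lists and marker lists were chosen with earlier results of these data known, and 1 gene of the pathway lists is not reported here. Named are the members, the genes of these lists where a list is discussed, and for each member averaging at least 20 normalized counts the 3 probes nearest in within-group correlation, among probes averaging at least 20. The alternatives were median, quantile and positive control scaling, a filter and a floor at 20, a pseudocount of 10, an intensity trend in limma, the methods' test with equal variances, the replicate number as a block, and leaving out each tumor. Median scaling of the nearest genes was chosen after seeing the data. RNA-seq and other experiments of the study were not analysed here.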

Additional observations from a re-analysis of the deposited data

Results flagged for a closer look

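Of 92 groups of 5 tumors examined, one for each genotype and each member or pathway gene, 7 had a tumor far from the other 4. For independent and normally spread values, chance alone would flag about 1 in 20 groups. These groups share tumors and some lie at the floor, so that rate was not measured for them. Among the members these were *Il6ra* in WT tumors, where number 3 measured 395 normalized counts and the others 340.2 to 348, and *Il11ra1* in WT tumors, where number 2 measured 11.85 and the others 28.7 to 34.3. Siah2 KO tumor 3 had *Myc* at 1344 with the others at 1092 to 1147, and WT tumor 5 had *Lbp* at 64.4 with the others at 87.6 to 93.9. The remaining cases are values that do not exceed the negative controls. *Il17a* measured 2.33 in WT tumor 5 with the others at 1 to 1.26, *Il17f* 1.32 in WT tumor 5 with the others at 1, and *Il21* 4.02 in Siah2 KO tumor 5 with the others at 1.11 to 1.60.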

How the results depend on the processing

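Over 158 recomputed log2 fold changes of the members, 125 kept their direction and their side of the threshold, 21 fell below it, 10 passed it and 2 turned their direction. Scaling to the positive controls gave 95 genes at an adjusted p under 0.05 by limma against 316, 60 of them higher, with 1 member (*Il11ra1*) and 3 pathway genes against 12. With each tumor left out the count of genes was 268 to 334 and that of members 1 to 3, the single member being *Lif* without WT tumor 5, WT tumor 6 or Siah2 KO tumor 3. *Stat3* turned to -0.11 under quantile normalization. *Il6* ran from -0.17 to 0.62 with tumors left out. Relative to leukocyte genes *Il6* ran from -0.70 to 0.13 and *Il11* from -0.49 to 0.089 with tumors left out. On that scale *Il11* was 0.087 under quantile normalization and -0.55 with a floor of 20. Every *Il11* value lies under that floor, so the -0.55 is the shift of the leukocyte genes alone and gives nothing on *Il11*. *Il6* was 0.33 relative to leukocyte genes in the 8 tumors with shared numbers, with or without the replicate block. Pairs of members with a changed ratio numbered 11 with the floor, 9 with a pseudocount of 10 and 0 to 9 with tumors left out, 9 without WT tumor 2 and 5 without Siah2 KO tumor 5. With the floor, pairs holding *Il6* or *Il11* largely followed their other member. Of the 18 nearest genes, 8 stayed under median scaling. Where the floor did not fix the values, the cause of these changes was not tested.

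Same-numbered tumors of the groups correlated at r = 0.051 to 0.489 in their deviations, and 4 of 8 correlated best with their own number among all tumors of the other group. Since not every pair was over 0.1, the numbers were not taken to pair the tumors. With the replicate block in 8 tumors 235 genes passed, and 232 without it in the same tumors. *Lif* and *Osm* were the members called in both fits, with *Osm* at 1.19, adjusted p = 0.022 and 0.026. Relative to leukocyte genes *Osm* was 0.68 in these 8 tumors and passed with the block (adjusted p = 0.034) but not without it (adjusted p = 0.11). A count model was not run, because the deposited values are background-subtracted and lie off whole steps of the scaling factor. *Il6* and *Il11* fell under the filter at a mean of 20. Counts near the negative controls limit what can be said of both.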
